A study of Mus musculus with 42 samples.

Results

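The 10 genes Trim16, Fbxw10, Pmp22, Myh10, Gucy2e, Ybx2, Nlrp1a, Nlrp1b, Nlrp1c-ps and Xaf1 lie on mouse chromosome 11 within 10 Mb of Trp53, the gene altered in these mice. They were chosen by their RNA levels in the libraries described here, for differences between genotypes. Which contrasts chose each gene is not stated in the sources used here. They are 10 of 690 annotated genes in that window and of 49585 genes in the count table. Differences between mice with a non-null Trp53 allele and p53-null mice were taken as used in the choice. They are given as a description without a test. The tests below use contrasts between carrier genotypes, irradiation states and organs. These tests draw on the same libraries as the choice, which may also have used differences between carriers, so they are not independent of it.

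RNA was sequenced from whole organs of mice aged 4 weeks with germline p53 alterations, on a mixed BALB/C and C57BL6 background that all groups shared. Mice of genotype p53 AD/- are called AD, those of genotype p53 RP/- are called RP, those of genotype p53 +/- are called Het, and p53-null mice are called Null. AD, RP and Het mice each had a Trp53 allele other than the null one and are called carriers. Irradiated thymus was taken 4 h after the dose, with 4 mice for each of the genotypes AD, RP, Het and Null. Basal thymus, from mice that were not irradiated, came from 3 AD, 3 Het and 2 Null mice. For each of the other basal organs, intestine, liver and pancreas, there were 3 AD and 3 Null libraries. The same 3 AD mice gave all 4 basal organs, and 2 of the 3 Null mice did so. The 42 libraries are named by genotype and mouse number. What the AD and RP alleles encode was not spelled out in the labels, and neither was the strain of origin of chromosome 11 in each mouse. A Trp53 allele and the stretch of chromosome it came on cannot be told apart in these groups.

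p53 is a transcription factor that binds DNA as a tetramer and responds to DNA damage, to which thymocytes are very sensitive. The Nlrp1 genes encode cytosolic sensors that assemble an inflammasome, a complex that activates caspase-1 and leads to release of interleukin-1 family cytokines and to lytic cell death. Nlrp1b is known for alleles that differ between inbred mouse strains in their response to anthrax lethal toxin. The other listed genes have no common pathway with each other.

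On GRCm38 the set spanned positions on both sides of Trp53, which lies at chr11:69580359-69591873. Upstream lay Trim16 (chr11:62820231-62850808), Fbxw10 (chr11:62847069-62877465), Pmp22 (chr11:63128982-63159547), Myh10 (chr11:68691559-68816632) and Gucy2e (chr11:69218117-69237036, minus strand). Downstream lay Ybx2 (chr11:69935796-69941605), Nlrp1a (chr11:71092236-71144704), Nlrp1b (chr11:71153102-71230733), Nlrp1c-ps (chr11:71242430-71285232) and Xaf1 (chr11:72301629-72313733). The 3 Nlrp1 genes are neighbours on the minus strand, and Nlrp1c-ps is annotated as a transcribed unprocessed pseudogene. The start of Gucy2e lay closest to that of Trp53, at -0.343 Mb, and that of Trim16 lay farthest, at -6.760 Mb. Trim16 and Fbxw10 overlap on the same strand and share 190 words of 50 bases, which were 4.13% of the words of Trim16 and 4.62% of those of Fbxw10. Nlrp1a shared 1.79% of its words with Nlrp1b and 0.282% with Nlrp1c-ps. Reads from such shared stretches could have been assigned to either gene or left uncounted, and counts of these genes are uncertain to at least that extent. Reads were aligned to GRCm38, and the mice were of mixed background. How reads from gene copies that differ from GRCm38 were aligned and counted was not tested.

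The promoters of Nlrp1a and Nlrp1b are shown because these neighbours differed together between genotypes in thymus and intestine, while Nlrp1b had the other order in liver. Nlrp1a in liver held 14 counts in AD and 2 in Null and did not pass the count filter, so a parting of the 2 genes there is uncertain. The windows are RefSeq promoters on GRCm38.p6, on the minus strand, at chr11:71144655-71144954 for Nlrp1a and chr11:71230684-71230983 for Nlrp1b. Of 286 aligned bases 253 were identical, or 88.5%. Capitals mark bases that differed or had no counterpart in the alignment.
Nlrp1a: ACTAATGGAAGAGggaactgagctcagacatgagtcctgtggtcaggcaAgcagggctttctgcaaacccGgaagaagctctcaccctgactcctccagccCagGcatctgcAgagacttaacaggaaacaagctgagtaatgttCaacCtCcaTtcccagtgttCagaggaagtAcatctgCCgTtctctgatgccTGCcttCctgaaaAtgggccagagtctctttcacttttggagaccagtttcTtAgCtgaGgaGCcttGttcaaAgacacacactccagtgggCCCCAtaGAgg
Nlrp1b: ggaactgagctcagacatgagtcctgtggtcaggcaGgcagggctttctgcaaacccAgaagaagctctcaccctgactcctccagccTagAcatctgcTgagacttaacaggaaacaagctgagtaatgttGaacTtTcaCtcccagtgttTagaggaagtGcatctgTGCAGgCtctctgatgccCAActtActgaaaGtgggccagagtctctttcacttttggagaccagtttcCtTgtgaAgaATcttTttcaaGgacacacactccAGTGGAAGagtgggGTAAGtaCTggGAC

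The Ybx2 promoter is shown because Ybx2 encodes a member of the Y-box family, named for binding to an inverted CCAAT motif. Its RefSeq window on GRCm38.p6 is chr11:69935649-69935948, plus strand, with 78% G and C. Capitals mark CCAAT read on the minus strand.
Ybx2: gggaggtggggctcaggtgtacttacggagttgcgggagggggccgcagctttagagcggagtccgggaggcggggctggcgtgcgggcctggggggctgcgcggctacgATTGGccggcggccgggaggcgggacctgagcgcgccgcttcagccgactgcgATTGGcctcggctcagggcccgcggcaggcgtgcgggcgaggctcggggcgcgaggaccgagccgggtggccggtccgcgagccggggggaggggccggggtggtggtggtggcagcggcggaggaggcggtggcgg
CCAAT, searched on both strands, occurred 2 times in this window. It occurred in 37.4% of the 32851 promoters of that length in the table. The interferon response element core, also searched on both strands, occurred in 3.44% of those promoters. None of the 8 members with a promoter in the table had a match to it in the first window listed, the only one searched. The table listed 4 windows for Pmp22 and 2 each for Ybx2 and Nlrp1b.

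Thymus libraries held 26398761 to 33331829 counts after irradiation and 27828884 to 31944233 without it. Totals were 24340398 to 34772519 for intestine, 26000528 to 32487187 for liver and 19861977 to 24815911 for pancreas. Levels are given as scaled CPM, the counts divided by the library total after adjustment by TMM factors over all 42 libraries. Trp53 lay at 21.6 to 25.1 scaled CPM in irradiated AD thymus, 21.4 to 23.5 in RP, 19.9 to 22.1 in Het and 12.4 to 13.8 in Null. Basal thymus held 20.4 to 25.2 in AD, 22.7 to 26.1 in Het and 13.7 to 15.1 in Null. Trp53 also did not overlap between AD and Null in intestine, but it did in liver (7.52 to 8.2 in AD and 5.78 to 8.15 in Null) and in pancreas (7.81 to 12 in AD and 11.5 to 13 in Null). The defining markers of thymocytes, enterocytes, hepatocytes and acinar cells were highest in the organ of that label. Summed acinar markers of the pancreas were also present in intestine, unevenly, at 565, 7260 and 72000 scaled CPM in AD-700, AD-701 and AD-702 and at 488, 38200 and 8300 in Null-859, Null-923 and Null-1087. A pair of irradiated libraries stood apart for the listed genes. Null-593 had Trim16 and Fbxw10 at the level of the carriers, and Het-631 had the highest Ybx2 and Myh10 of all thymus libraries. In Het-631 the summed fibroblast markers were 676 scaled CPM, against 305 to 448 in the other irradiated Het libraries, and the summed B cell markers were 30, against 68.5 to 90.2. Its smooth muscle markers (143) were also above those libraries. Thymocyte (4460), macrophage (112) and neutrophil (16.7) markers were below them, so Het-631 differed beyond the listed genes. The part of these cell types in its Ybx2 and Myh10 levels was not tested. In bulk tissue fewer cells of a type and less RNA per cell cannot be told apart.

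Separation between carriers and Null was read library by library. In irradiated thymus every AD library was above every Null library for 6 of 10 members and below for 1, and the 2 groups did not overlap for 5.25% of all genes. RP against Null gave the same counts of 6 and 1, beside 4.17% of all genes. Het against Null gave 7 above and 1 below, beside 18.4% of all genes. In basal thymus AD against Null gave 7 above and 3 below, beside 22.5% of all genes, and Het against Null gave 6 above and 2 below, beside 24.1% of all genes. In the other basal organs only genes that passed the count filter were counted. Intestine gave 3 above and 0 below among 9 such members, beside 12.2% of all genes. Liver gave 1 above and 1 below among 5, beside 16.1% of all genes, and pancreas gave 1 above and 2 below among 5, beside 13.4% of all genes. These contrasts were taken as the ones that chose the members, and the comparisons within each tissue share their Null libraries.

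**Figure D1:**
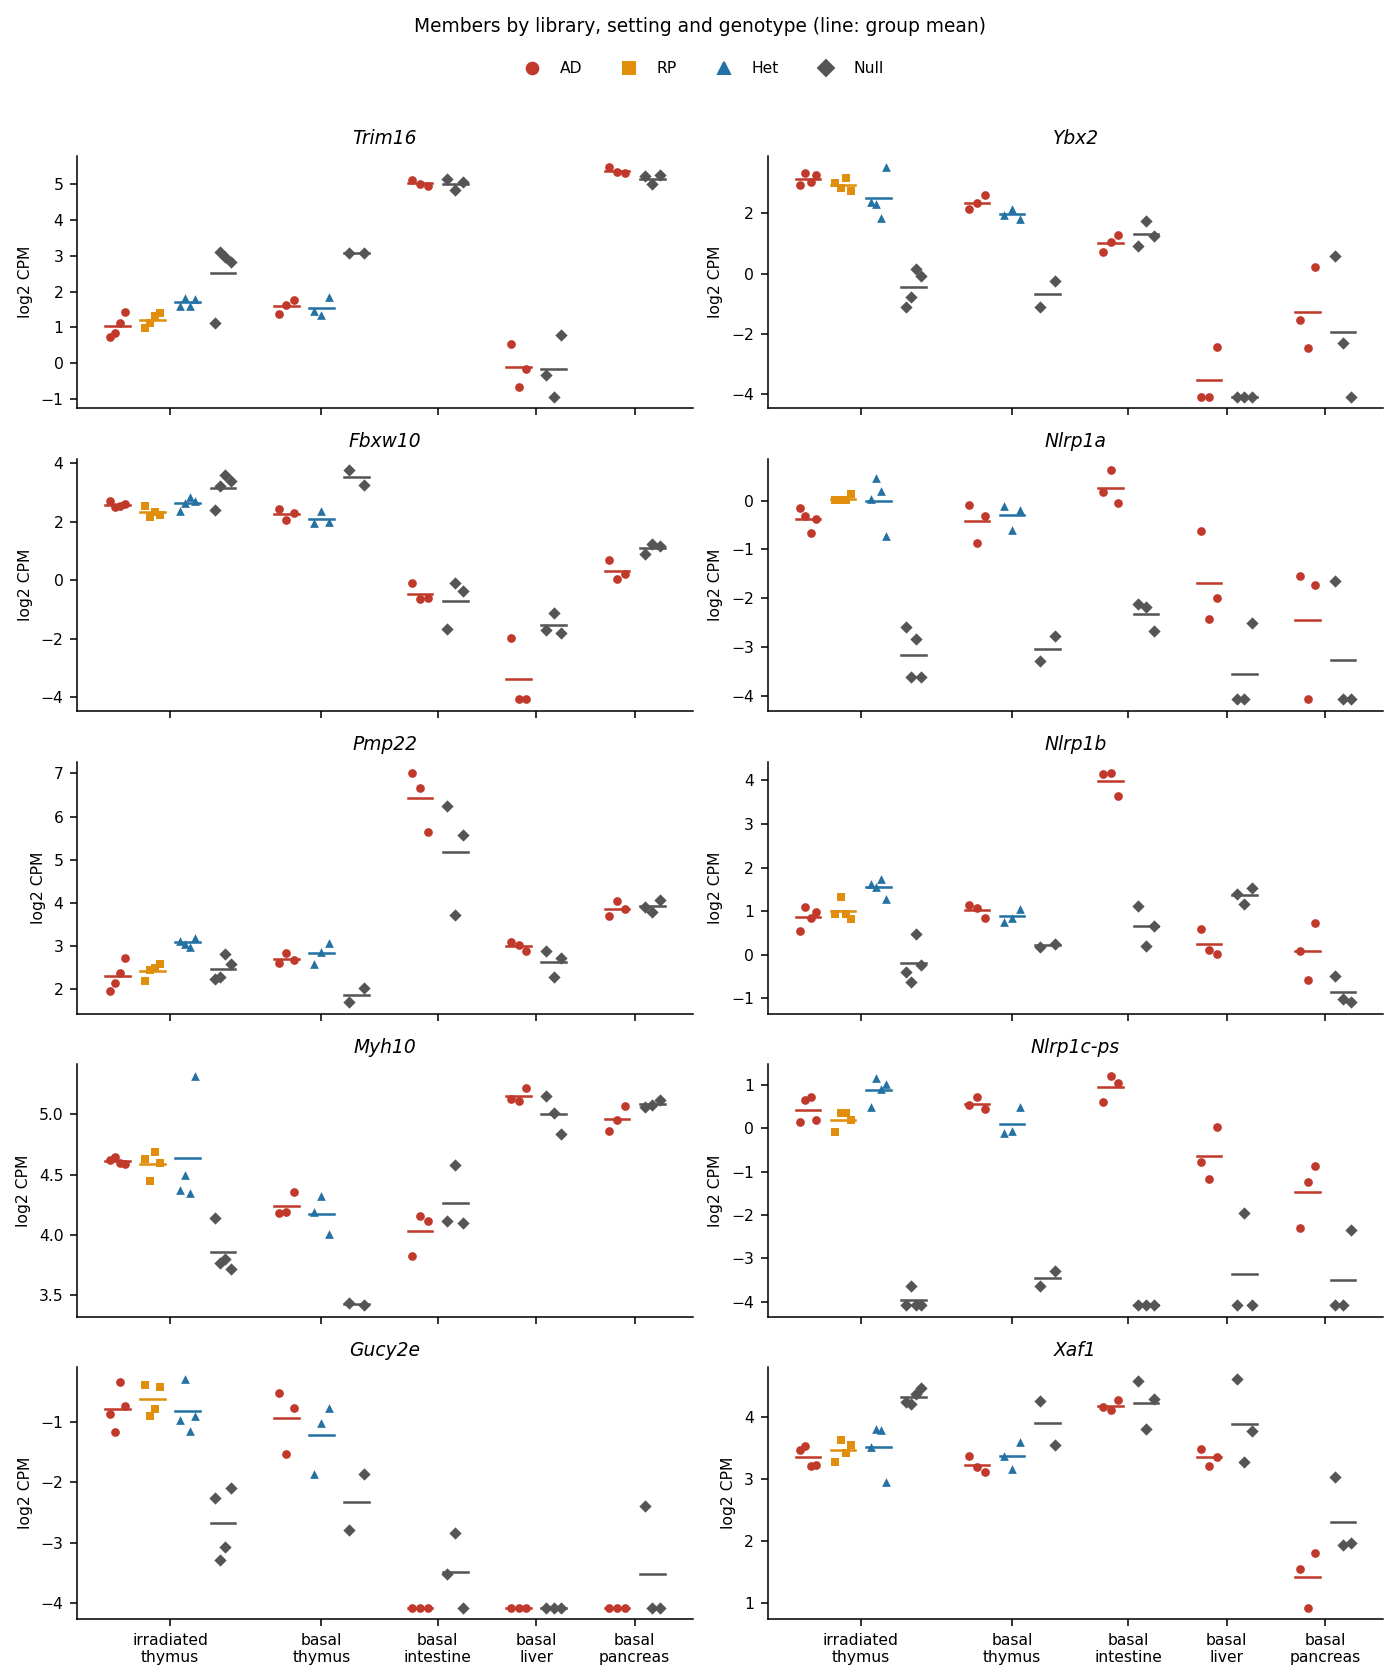
Level of each member in every library, as log2 CPM with a prior count of 2 (vertical axis, its own range in each panel), by organ and irradiation state, with AD in red, RP in orange, Het in blue and Null in grey; short lines are group means. Nlrp1a, Nlrp1c-ps and Ybx2 show Null far below the carriers in thymus, and Nlrp1b shows AD above Null in intestine but below it in liver.

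Of the Nlrp1 cluster, the pseudogene Nlrp1c-ps had the largest ratios of carriers over Null. It lay at 1.04, 1.51, 1.6 and 1.09 scaled CPM in irradiated AD thymus, 0.883, 1.22, 1.22 and 1.07 in RP and 1.34, 2.15, 1.81 and 1.96 in Het. The 4 irradiated Null libraries held 1 count between them, in Null-604. No carrier library of irradiated thymus overlapped with Null. The ratio of summed counts over Null was 246 in AD, with a counting interval of 43.7 to 9760, and it was 207 (36.8 to 8220) in RP and 342 (60.9 to 13600) in Het. These are exact binomial intervals at 95% and cover counting error only.

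In basal thymus Nlrp1c-ps stood at 1.38, 1.6 and 1.29 scaled CPM in AD, 0.867, 0.891 and 1.35 in Het and 0.0211 and 0.0434 in Null. The ratio over Null was 44.7 (15.1 to 218) in AD and 32.3 (10.8 to 159) in Het. Intestine held 44, 77 and 58 counts in AD and 0 in each Null library, which made AD at least 58.7-fold higher against a floor of 3 counts over the Null group. All AD libraries were also above all Null libraries in liver, with 29 counts in AD and 3 in Null and a ratio of 10.1 (3.14 to 51.9). Pancreas held 1, 3 and 4 counts in AD and 1 count in Null, with a ratio of 7.48 (1 to 332). Nlrp1c-ps was the only member separated in the same direction in all 5 settings of organ and irradiation, but in pancreas AD-700 (0.142 scaled CPM) and Null-1087 (0.137) held 1 count each and differed by scaling alone.

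Nlrp1a, which encodes an inflammasome sensor, lay at 0.842, 0.746, 0.571 and 0.714 scaled CPM in irradiated AD thymus, 0.949, 0.956, 0.949 and 1.03 in RP and 0.966, 1.33, 1.09 and 0.547 in Het. The Null libraries lay at 0.106, 0.0217, 0.0803 and 0.022. The log2 difference from Null was 3.57 ± 0.38 in AD, 3.99 ± 0.37 in RP and 3.99 ± 0.37 in Het, where ± is the standard error of the edgeR fit. In basal thymus the levels were 0.879, 0.494 and 0.749 in AD, 0.867, 0.602 and 0.825 in Het and 0.0422 and 0.0867 in Null. The log2 differences from Null were 3.42 ± 0.50 in AD and 3.55 ± 0.50 in Het. Intestine again separated, with 1.07, 1.49 and 0.904 scaled CPM in AD and 0.169, 0.16 and 0.0967 in Null. Liver held 14 counts in AD and 2 in Null, and pancreas held 4 in AD and 2 in Null, where the libraries overlapped. In liver AD-701 (0.127 scaled CPM) and Null-1087 (0.115) held 2 counts each and differed by scaling alone.

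Nlrp1b, the anthrax toxin sensor, changed its order between organs. In irradiated thymus it lay at 1.4, 2.07, 1.74 and 1.9 scaled CPM in AD, 1.85, 2.43, 1.86 and 1.72 in RP, 3.02, 2.89, 3.29 and 2.39 in Het and 0.697, 0.587, 1.33 and 0.793 in Null. Basal thymus held 2.15, 2.06 and 1.75 in AD, 1.63, 1.73 and 2.02 in Het and 1.08 and 1.13 in Null. All carriers were above all Null libraries in both. In intestine the AD libraries lay at 17.7, 18 and 12.5 scaled CPM and the Null libraries at 2.12, 1.08 and 1.51, a log2 difference of 3.33 ± 0.25. In liver the order was the other way, with 1.44, 1.02 and 0.954 in AD and 2.56, 2.19 and 2.82 in Null, a log2 difference of -1.09 ± 0.39. The liver values rest on 53 counts in AD and 124 in Null. In pancreas AD (0.995, 0.612 and 1.59) and Null (0.651, 0.436 and 0.412) overlapped.

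Ybx2, which encodes a germ cell protein that binds and stores messenger RNA, lay at 7.65, 10, 8.05 and 9.6 scaled CPM in irradiated AD thymus and 7.9, 6.99, 8.87 and 6.63 in RP. Het-594, Het-595 and Het-603 had 5.06, 4.83 and 3.51, and Het-631 had 11.4. The Null libraries lay at 0.402, 0.522, 1.04 and 0.881, below all carriers. The log2 difference from Null was 3.63 ± 0.35 in AD, 3.40 ± 0.35 in RP and 3.09 ± 0.35 in Het, the last of which was 2.61 without Het-631. In basal thymus Ybx2 stood at 4.33, 4.98 and 6.02 in AD, 3.79, 4.31 and 3.44 in Het and 0.401 and 0.781 in Null. Intestine did not separate the groups, with 1.57, 1.98 and 2.33 in AD and 1.81, 3.29 and 2.32 in Null. Liver held 2 counts in AD and 0 in Null, and pancreas held 12 in each.

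Gucy2e encodes a guanylyl cyclase that makes cyclic GMP in retinal photoreceptors. It was low in thymus, at 0.384 to 0.731 scaled CPM in irradiated AD, 0.478 to 0.706 in RP, 0.392 to 0.758 in Het and 0.0435 to 0.176 in Null. The irradiated carriers were all above Null. In basal thymus the AD libraries (0.637, 0.288 and 0.522) were above Null (0.0844 and 0.217), while Het (0.217, 0.434 and 0.527) overlapped with Null. The basal AD difference from Null of 1.68 on the log2 scale was 0.49 with the fat marker Adipoq as a covariate, and it was 2.47 and 1.18 at the ends of the range when one library was left out. The 2 basal Null libraries lay below all carriers in summed adipocyte markers, so fat content and genotype cannot be told apart there. Gucy2e had 0 counts in the 9 AD libraries of intestine, liver and pancreas.

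Myh10, the heavy chain of non-muscle myosin IIB, which contracts actin filaments in cell shape change and division, had smaller differences from Null in thymus than Ybx2. In irradiated thymus it lay at 24.5, 25, 24.2 and 24.1 scaled CPM in AD, 24.6, 21.8, 25.7 and 24.2 in RP and 20.7, 22.6, 20.4 and 40 in Het. The Null libraries lay at 17.6, 13.5, 13.9 and 13.1. The log2 difference from Null was 0.76 ± 0.17 in AD, 0.72 ± 0.17 in RP and 0.81 ± 0.17 in Het. Without Het-631, which is the library at 40, the Het difference was 0.51. Basal thymus held 18, 18.2 and 20.5 in AD, 18.2, 19.8 and 16 in Het and 10.8 and 10.7 in Null, with no overlap. AD and Null overlapped in intestine, liver and pancreas. The summed fibroblast markers in basal thymus were 409 to 529 scaled CPM in AD, 407 to 535 in Het and 236 to 328 in Null, and their part in the Myh10 difference was not tested. With Adipoq as a covariate the basal Myh10 difference of AD from Null was 0.88, against 0.83 without it.

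Pmp22, a membrane protein of compact myelin in peripheral nerve, did not separate carriers from Null in irradiated thymus. It lay at 3.84, 4.33, 5.12 and 6.48 scaled CPM in AD, 4.46, 5.32, 5.57 and 5.89 in RP, 8.65, 8.14, 7.75 and 9.07 in Het and 4.65, 4.76, 6.91 and 5.88 in Null. Only Het was apart from Null there. In basal thymus all carriers were above Null, with 6, 7.05 and 6.31 in AD, 5.92, 7.18 and 8.28 in Het and 3.16 and 3.99 in Null. The log2 difference of basal AD from Null was 0.87 ± 0.17, and it was 0.15 with Adipoq as a covariate. For Het the difference was 1.03 ± 0.17, and it was 0.46 with the covariate. The summed adipocyte markers, 7 genes, were 230 to 292 scaled CPM in basal AD thymus, 110 to 311 in Het and 86.5 to 88.2 in Null. With Null below all carriers, fat content and genotype cannot be told apart there, and the covariate does not separate them. It also moved the log2 difference of Trp53 in basal AD from Null, from 0.67 to 0.92. The summed Schwann cell markers overlapped, at 25.8 to 29.6 in AD, 27.8 to 30 in Het and 23.4 to 31.6 in Null. In liver the AD libraries (8.42, 8.03 and 7.37) were above the Null libraries (7.37, 4.77 and 6.5), with the closest pair equal to 3 digits. In intestine Pmp22 lay at 129, 102 and 49.6 in AD and 75.5, 13.1 and 47.4 in Null. Within each genotype the order of these libraries was the inverse of that of their acinar markers given above, whose part in Pmp22 was not tested. The log2 difference of AD from Null in intestine was 1.04 ± 0.77, and for Pmp22 it was 0.61 without Null-923 and 1.63 at the other end of the range with one library left out.

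Trim16 and Fbxw10 were lower in carriers of basal thymus. Trim16 encodes a tripartite motif protein with ubiquitin ligase activity that takes part in autophagy of damaged lysosomes. Irradiated thymus held 1.6, 1.73, 2.1 and 2.66 scaled CPM of Trim16 in AD, 1.92, 2.13, 2.46 and 2.57 in RP and 2.94, 3.5, 2.98 and 3.38 in Het. Among the Null libraries Null-604, Null-856 and Null-857 lay at 8.61, 7.79 and 7.12, above all carriers, and Null-593 lay at 2.11, among them. The log2 difference of AD from Null was -1.65 ± 0.30 with all libraries and -1.94 without Null-593. In basal thymus the groups did not overlap, with 2.55, 3.04 and 3.34 in AD, 2.67, 2.48 and 3.58 in Het and 8.46 and 8.41 in Null.

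The lower level of Trim16 in AD was not seen outside the thymus. Intestine held 34.6, 32.5 and 30.8 scaled CPM in AD and 35.8, 28.5 and 33.3 in Null, a log2 difference of 0.00 ± 0.10 with an interval of -0.23 to 0.24. Pancreas held 44.6, 40.7 and 39.6 in AD, all above the 37.5, 32 and 38.3 in Null. Those last differences were small, at 0.18 ± 0.15 on the log2 scale.

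Fbxw10, an F-box protein with WD40 repeats of the kind that brings substrates to a ubiquitin ligase, lay at 6.47, 5.59, 5.78 and 6.05 scaled CPM in irradiated AD thymus, 5.78, 4.47, 5.01 and 4.63 in RP, 5.16, 6.27, 7.16 and 6.53 in Het and 5.22, 9.42, 12.2 and 10.5 in Null. The lowest of the Null values was again that of Null-593. That library covered 112% of the log2 distance between the other Null libraries and the carriers for Trim16 and 114% for Fbxw10. The share was 44.7% for Myh10, 26.2% for Gucy2e and -28.2% to 23.5% for the 5 members downstream of Trp53. For Pmp22 it cannot be read, since carriers and Null hardly differed there. Single Null libraries scattered in this measure, with Null-856 at 57% for Nlrp1b. In basal thymus Fbxw10 stood at 5.32, 4.09 and 4.9 in AD, 3.84, 5.13 and 3.94 in Het and 13.6 and 9.61 in Null. It was also lower in all AD than in all Null libraries of pancreas, at 1.56, 0.98 and 1.1 in AD and 1.82, 2.33 and 2.19 in Null. Fbxw10 in liver held 3 counts in AD and 14 in Null. In intestine the groups overlapped, with 0.87, 0.584 and 0.591 in AD and 0.254, 0.883 and 0.709 in Null, a log2 difference of 0.18 ± 0.45.

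Xaf1, an interferon-induced protein that binds the caspase inhibitor XIAP, was lower in carriers of irradiated thymus. It lay at 11, 11.5, 9.12 and 9.28 scaled CPM in AD, 9.58, 12.4, 10.5 and 11.6 in RP, 11.4, 13.9, 13.7 and 7.6 in Het and 18.7, 18.3, 20.6 and 21.9 in Null. The groups did not overlap, and the log2 difference from Null was -0.95 ± 0.15 in AD, -0.86 ± 0.15 in RP and -0.80 ± 0.15 in Het. In basal thymus AD (10.2, 9.07 and 8.6) lay below Null (19 and 11.5), and Het (10.3, 8.84 and 12) overlapped with Null. The basal AD difference of -0.70 ± 0.20 was -0.27 without Null-859. Pancreas separated with lower AD values of 2.84, 1.84 and 3.43 against 8.08, 3.78 and 3.84 in Null. AD and Null overlapped in intestine and in liver.

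Most other genes of the window did not separate carriers from Null. Among 410 other genes within 10 Mb, AD and Null did not overlap in irradiated thymus for 28, or 6.83%, RP and Null for 20, or 4.88%, and Het and Null for 92, or 22.4%. Over genes outside the window these shares were 5.19%, 4.12% and 18.3%. In basal thymus AD and Null did not overlap for 97 of the other genes, or 23.7%, and Het and Null for 94, or 22.9%, against 22.4% and 24% outside the window. Shares varied with distance, and for irradiated AD the 91 genes at 5 to 7.5 Mb had 14.3% apart. In basal thymus the 141 genes within 2.5 Mb had 30.5% apart for AD and 32.6% for Het. None of these differences in share was tested. By the naming rule, 1 of 404 other genes was apart in irradiated and in basal thymus in the same direction. It was Wdr81, a protein of endosome and autophagy traffic at 5.874 Mb, with a median absolute log2 difference of 0.21. Single non-members reached large absolute log2 differences from Null. In irradiated thymus the largest was 1.56 for AD (Cfap52), 1.12 for RP (Myh3) and 3.04 for Het (Tmem95). In basal thymus it was 2.25 for AD (Myocd) and 7.14 for Het (Myh2), where the fitted value of Nlrp1c-ps was 4.93. Intestine had 3.96 (Ccdc42), liver 1.37 (Clec10a) and pancreas 1.05 (Cxcl16). These genes were named after their values were seen. Their fitted values are given without counts, errors or separation, and a gene with few counts can reach a large one.

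**Figure D2:**
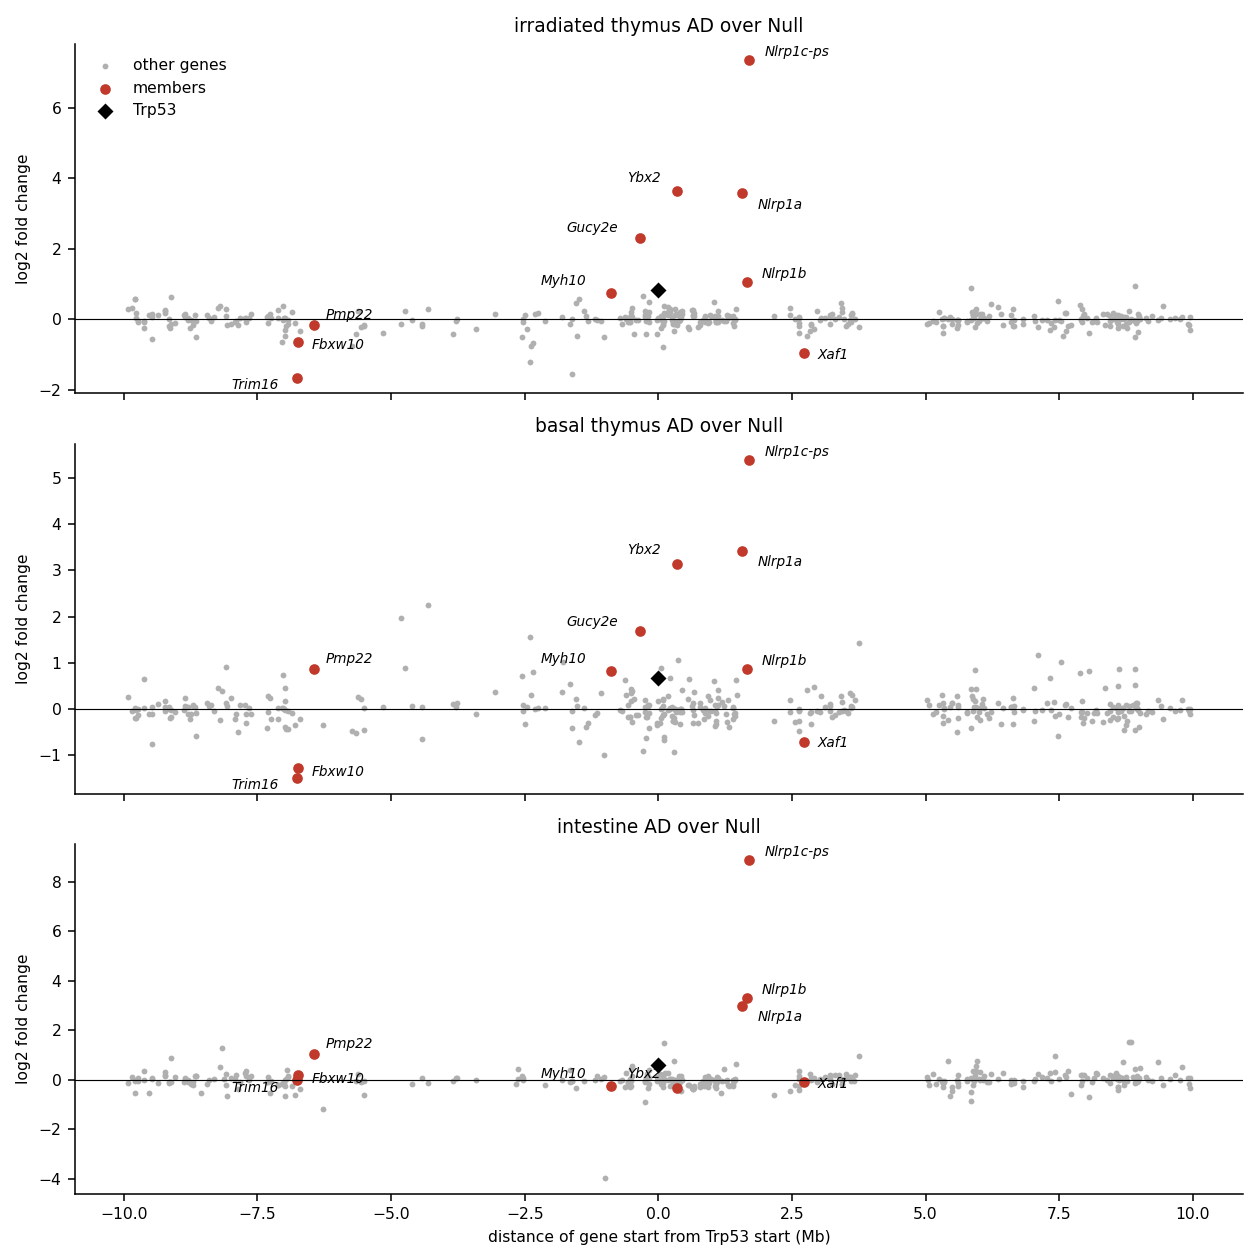
Log2 fold change of AD over Null (vertical axis) against the distance of a gene's start from the Trp53 start in Mb (horizontal axis), for genes that passed the count filter, in irradiated thymus, basal thymus and intestine. Members are red, Trp53 is a black diamond and other genes are grey; Nlrp1c-ps at 1.705 Mb reaches 7.36, 5.38 and 8.88 in the fits, while most grey points lie near 0.

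The carrier genotypes were then compared with each other in irradiated thymus, a comparison that sets each altered allele beside the wild-type allele of Het mice. Pmp22 and Nlrp1b were lower in AD than in Het. Pmp22 had a log2 difference of -0.73 ± 0.15 (0.602-fold, adjusted p = 0.0034 in edgeR), with all AD libraries below all Het libraries. In irradiated thymus Pmp22 stood apart from Null only through these Het libraries (0.57 ± 0.15, against -0.16 ± 0.16 in AD), so its p-value is not independent of the difference from Null. Nlrp1b had a log2 difference of -0.67 ± 0.21 (adjusted p = 0.0367 in edgeR), again with no overlap. These 2 of 10 members were the calls, both lower, beside 14% of all genes. The median log2 difference was -0.29 over the members and 0.02 over all genes.

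RP against Het gave calls for Pmp22, at -0.64 ± 0.15 (adjusted p = 0.0064 in edgeR), and for Nlrp1c-ps, at -0.71 ± 0.22 (adjusted p = 0.0318 in edgeR). Both genes were lower in all RP libraries than in all Het libraries. They made 2 of 10 members, beside 18.7% of all genes. The median was -0.21 over the members and -0.01 over all genes. Trim16 was not called but was lower in all AD and all RP libraries than in all Het libraries. Its log2 difference from Het was -0.63 ± 0.30 in AD (adjusted p = 0.194 in edgeR) and -0.48 ± 0.30 in RP (adjusted p = 0.309 in edgeR). Fitted with only the 2 groups compared, it passed in both (adjusted p of 0.045 and 0.0449 in edgeR). AD and RP were set against the same Het libraries, so the comparisons are not independent of each other. Smooth muscle markers, summed, were 39.6 to 89.2 scaled CPM in AD, 44.2 to 62.7 in RP and 85.3 to 143 in Het, and their part in the lower Pmp22 was not tested.

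Pmp22 kept its calls when any one library was left out, with adjusted p of at most 0.0157 for AD and 0.0257 for RP over all alternatives in edgeR and DESeq2. Those calls are still not independent of the choice, since in irradiated thymus Pmp22 stood apart from Null only through these Het libraries. The Nlrp1 calls did not hold when single libraries were left out. Nlrp1b in AD against Het lost its call without Het-594, Het-595, Het-603, AD-630, AD-726 or AD-727, with adjusted p up to 0.119 in edgeR. Nlrp1c-ps in RP against Het lost its call without Het-595, Het-603, RP-649, RP-654 or RP-656, with adjusted p up to 0.0991 in edgeR.

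Ybx2 depended on Het-631. With all libraries its log2 difference from Het was 0.54 ± 0.29 in AD (adjusted p = 0.242 in edgeR) and 0.31 ± 0.29 in RP (adjusted p = 0.519 in edgeR). Without Het-631 these were 1.02 (adjusted p = 0.00105 in edgeR) and 0.79 (adjusted p = 0.00663 in edgeR). Xaf1 in AD also passed without that library, at -0.31 (adjusted p = 0.0496 in edgeR). Over all genes the count of calls for AD against Het was 3099 with Het-631 and 4665 without it.

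AD and RP, the 2 mutant alleles, gave 0 calls among the members and 0% of all genes in edgeR. At an unadjusted p under 0.05 edgeR found 1525 genes, and DESeq2 called 17. Nlrp1a had the widest member difference, -0.42 ± 0.26, with an interval of -0.97 to 0.13, and every AD library was below every RP library. For Myh10 the interval was -0.32 to 0.40, and for Nlrp1b it was -0.57 to 0.31. In basal thymus AD against Het gave 0 calls among the members and 0% of all genes in edgeR, with 775 genes at an unadjusted p under 0.05 and 12 called by DESeq2. Ybx2 was higher in all 3 basal AD libraries than in all 3 Het libraries, at 0.39 ± 0.18 with an adjusted p of 0.999 in edgeR. The basal interval for Pmp22 was -0.46 to 0.15.

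**Figure D3:**
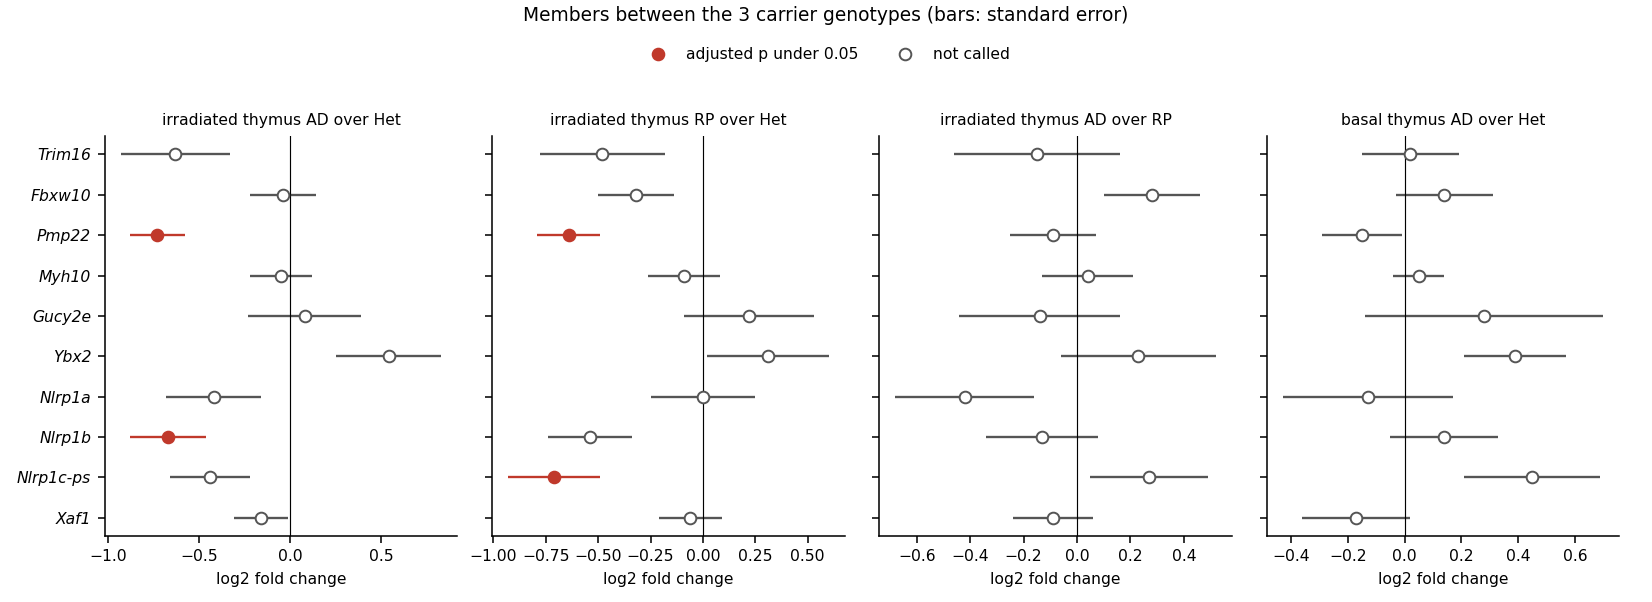
Log2 fold change of each member (horizontal axis, its own range in each panel) with its standard error, for AD over Het, RP over Het and AD over RP in irradiated thymus and AD over Het in basal thymus. Filled red points passed an adjusted p of 0.05 in edgeR: Nlrp1b and Pmp22 for AD over Het, and Nlrp1c-ps and Pmp22 for RP over Het.

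Irradiation was tested within each genotype of thymus. In Het thymus 3 of 10 members rose 4 h after exposure, beside 16.8% of all genes, and none fell. Nlrp1c-ps rose by 0.78 ± 0.24 (adjusted p = 0.0238 in edgeR), Nlrp1b by 0.66 ± 0.21 (adjusted p = 0.0274 in edgeR) and Myh10 by 0.49 ± 0.17 (adjusted p = 0.0483 in edgeR). Irradiated and basal Het libraries overlapped for Nlrp1c-ps and did not overlap for Nlrp1b and Myh10. The median log2 difference was 0.43 over the members and 0.02 over all genes. Trp53 itself fell by 0.27 ± 0.08 (adjusted p = 0.0153 in edgeR). These irradiated Het libraries are the same as those set against AD and RP above. All 3 member calls were lost without the basal library Het-697 and also without Het-703, with adjusted p of 0.0672 to 0.121 in edgeR. Nlrp1b also lost its call without Het-603 (adjusted p = 0.072 in edgeR), Nlrp1c-ps without Het-595 (adjusted p = 0.0709 in edgeR) and Myh10 without Het-855 (adjusted p = 0.178 in edgeR). Myh10 without Het-631 had a difference of 0.20 (adjusted p = 0.166 in edgeR). Trp53 lost its call without Het-697 or Het-855, with adjusted p of 0.092 and 0.0637 in edgeR.

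In AD thymus irradiation called 0 of 10 members, beside 0.546% of all genes in edgeR, and in Null thymus it called 0 of 10, beside 0.131%. In Null thymus Nlrp1c-ps held 1 irradiated and 3 basal counts and Nlrp1a held 11 and 6. Both passed the count filter through the carriers. Nlrp1c-ps was too low in Null to be called, and for Nlrp1a the lack of a call says little. DESeq2 called 0 members in both. An unadjusted edgeR p under 0.05 was reached by 2880 of all genes in AD and 1717 in Null. Ybx2 in AD stood at 0.80 ± 0.30 (adjusted p = 0.27 in edgeR) with all irradiated libraries above all basal ones. Fitted with only those 2 groups, Ybx2 (adjusted p = 0.00895 in edgeR) and Myh10 (adjusted p = 0.0156 in edgeR) passed in AD. Myh10 stood at 0.38 ± 0.17 in AD (adjusted p = 0.359 in edgeR) and 0.46 ± 0.20 in Null (adjusted p = 0.633 in edgeR), beside 0.49 in Het. In each of these genotypes all its irradiated libraries were above all basal ones, so its call in Het alone does not set Het apart. Nlrp1b in AD was at -0.15 ± 0.20, with an interval of -0.57 to 0.27. The difference between the Het and the AD response was tested directly and called no member, with 0.81 ± 0.29 for Nlrp1b (adjusted p = 0.134 in edgeR) and 0.89 ± 0.33 for Nlrp1c-ps (adjusted p = 0.15 in edgeR). For Myh10 the difference in response was 0.11 ± 0.24 (adjusted p = 0.885 in edgeR). That test called 940 of all genes.

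**Figure D4:**
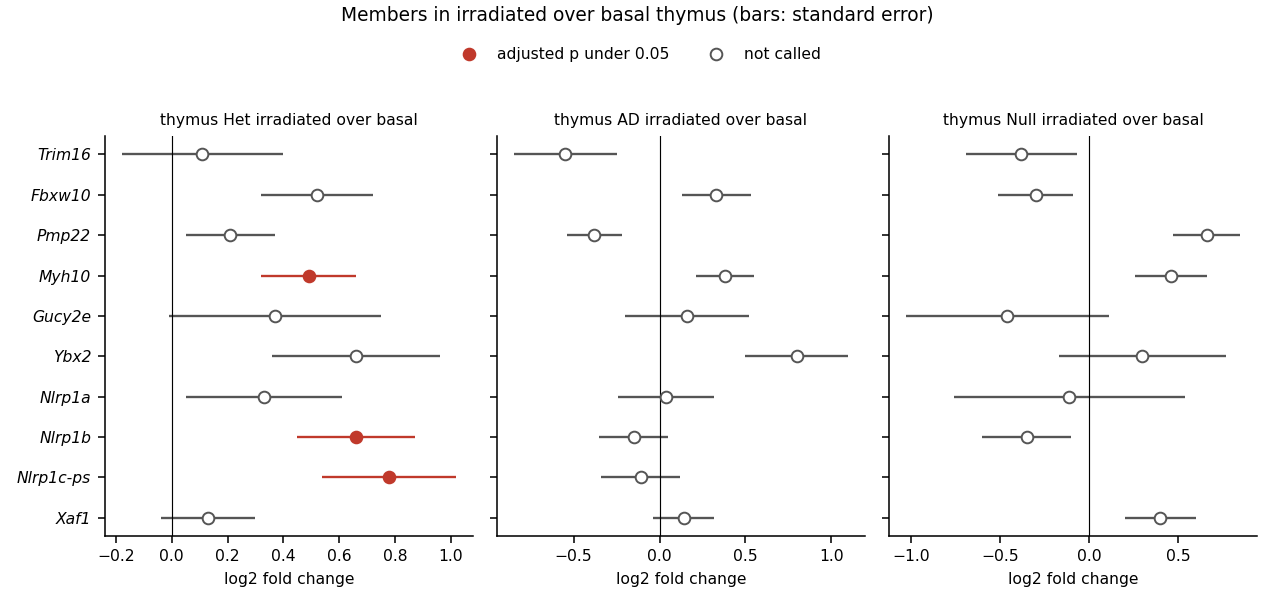
Log2 fold change of each member in irradiated over basal thymus (horizontal axis, its own range in each panel) with its standard error, for Het, AD and Null. Filled red points passed an adjusted p of 0.05 in edgeR, which only Nlrp1b, Nlrp1c-ps and Myh10 in Het did; Nlrp1c-ps in Null is not drawn because it had 1 irradiated and 3 basal counts.

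Organs of the basal AD mice were compared with the thymus of the same mice, without a term for mouse in the reported fit. Scaling mattered here, since the median log2 difference over all genes was -0.15 for intestine, -0.47 for liver and -0.21 for pancreas with TMM, and -0.70, -1.70 and -2.24 with library totals alone. Intestine had 4 members higher and 4 lower, beside 66.7% of all genes called. Pmp22 (3.77 ± 0.47), Trim16 (3.36 ± 0.21), Nlrp1b (2.92 ± 0.27) and Xaf1 (0.85 ± 0.28) were the higher ones, with edgeR adjusted p of 1.72e-06, 5.16e-13, 1.04e-09 and 0.0109. Ybx2 (-1.48 ± 0.49), Fbxw10 (-2.90 ± 0.38) and Myh10 (-0.30 ± 0.13) were lower, and the call of Myh10 (adjusted p = 0.0404 in edgeR) held in 4 of 12 alternatives. Without the intestine of AD-702, which had the most acinar markers, the log2 difference was 4.08 for Pmp22, 3.41 for Trim16 and 3.08 for Nlrp1b. Gucy2e, with 0 counts in intestine and 66 in thymus, was at least 14.8-fold lower. It passed the count filter only through thymus and could be called only as lower, so it is no support for the count of 4 lower members. Nlrp1a (0.61 ± 0.51) and Nlrp1c-ps (0.32 ± 0.43) were not called. Of the Nlrp1 cluster only Nlrp1b thus passed the test in intestine, and the difference of its response from that of its neighbours was not tested. Xaf1 lost its call when library totals alone were used for scaling, at 0.29 (adjusted p = 0.397 in edgeR).

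In liver 1 member was higher and 6 were lower, beside 71.5% of all genes called. Of the 6, Gucy2e, Ybx2 and Fbxw10 had 0, 2 and 3 counts in AD liver and passed the count filter through other organs. They could be called only as lower, so they are no support for that count. Trim16 (-1.79 ± 0.27, adjusted p = 2.62e-06 in edgeR), Nlrp1b (-0.91 ± 0.30, adjusted p = 0.00931 in edgeR) and Nlrp1c-ps (-1.30 ± 0.49, adjusted p = 0.0225 in edgeR) were lower. Nlrp1c-ps lost its call without the liver of AD-700 or AD-701 or the thymus of AD-701, with adjusted p up to 0.0863 in edgeR. Gucy2e was at least 7.44-fold lower. Ybx2, with 2 counts in liver, was 119-fold lower (counting interval 32.8 to 985), and Fbxw10, with 3 counts, was 74.1-fold lower (25.2 to 360). Myh10 was higher by 0.81 ± 0.13, but at -0.43 it was lower with library totals alone.

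Pancreas had 3 members higher and 7 lower, beside 61.9% of all genes called. Among the 7 was Gucy2e, with 0 counts in AD pancreas, which could again be called only as lower. Trim16 rose most, by 3.75 ± 0.21 (adjusted p = 1.33e-13 in edgeR), and was still higher at 1.69 with library totals alone. Pmp22 (1.12 ± 0.46) and Myh10 (0.67 ± 0.13) were higher with TMM scaling and lower with library totals alone, at -0.95 and -1.39. Ybx2, Fbxw10, Xaf1 and the 3 Nlrp1 genes were lower, with log2 differences of -2.05 ± 0.81 for Nlrp1a, -0.94 ± 0.34 for Nlrp1b and -2.10 ± 0.62 for Nlrp1c-ps, and Gucy2e was at least 3.72-fold lower. Nlrp1a did not pass with mouse as a block (adjusted p = 0.0511 in edgeR) or without any of several libraries (adjusted p up to 0.146 in edgeR). Nlrp1b did not pass without the pancreas of AD-700 or AD-701 (adjusted p of 0.0578 and 0.135 in edgeR), and the call of Pmp22 held in 4 of 12 alternatives. The order of organs for Trim16 in AD mice was liver (0.574 to 1.37 scaled CPM), thymus (2.55 to 3.34), intestine (30.8 to 34.6) and pancreas (39.6 to 44.6), with no overlap between neighbours.

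**Figure D5:**
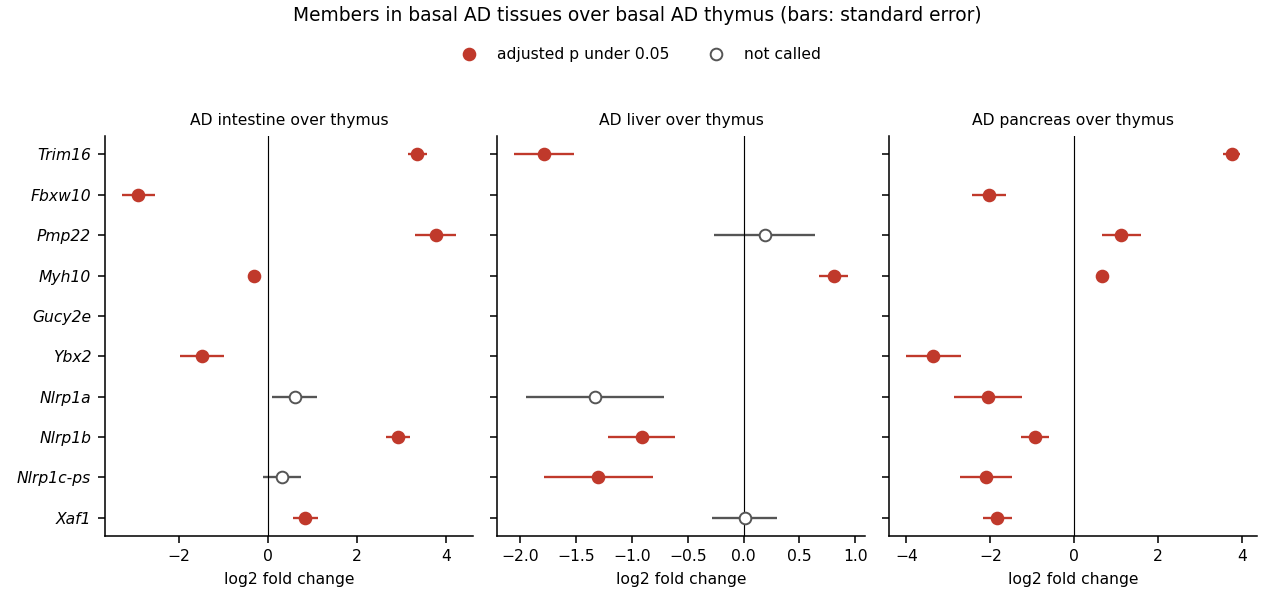
Log2 fold change of each member in basal AD intestine, liver and pancreas over basal AD thymus (horizontal axis, its own range in each panel) with its standard error under TMM scaling. Filled red points passed an adjusted p of 0.05 in edgeR; Gucy2e in all 3 organs and Ybx2 and Fbxw10 in liver are not drawn, having at most 3 counts there. Trim16 is high in intestine and pancreas, and the points for Myh10 and Pmp22 in pancreas and Myh10 in liver change sign with library totals alone.

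Other genes of the members' pathways were read from lists written with earlier results of these data known. Of 20 genes of the inflammasome pathway, 0 were higher and 2 lower in AD than in Het irradiated thymus, with a list median of -0.26, and 0 were higher and 3 lower in RP, with a median of -0.22. These are 2 and 3 calls in 20, beside 14% and 18.7% of all genes called in the same comparisons, and so are no more frequent than among all genes. The cytokine Il1b was lower, with log2 differences of -2.82 ± 0.19 in AD (adjusted p = 4.56e-09 in edgeR) and -2.52 ± 0.18 in RP (adjusted p = 1.67e-08 in edgeR). The sensor Nlrp3 was lower, at -0.69 ± 0.22 in AD (adjusted p = 0.0397 in edgeR). In Het thymus 4 of the 20 rose with irradiation and none fell, beside 16.8% of all genes called. They were Il1b (2.08 ± 0.19), the related cytokine Il18 (0.81 ± 0.23), the caspase Casp4 (0.46 ± 0.12) and the pore protein Gsdmd (0.32 ± 0.06). Summed neutrophil markers were 44.7 to 105 scaled CPM in irradiated AD thymus, 49.4 to 73.9 in RP and 16.7 to 275 in Het, and 62.6 to 82.2 in basal Het thymus. Summed macrophage markers were 120 to 146 in irradiated AD thymus and 133 to 147 in RP, and 225, 188, 209 and 112 in Het-594, Het-595, Het-603 and Het-631, against 143 to 159 in basal Het thymus. The part of either list in these results was not tested. AD intestine had 13 of the 20 higher than AD thymus and none lower, beside 66.7% of all genes called in either direction.

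The families of the other members were read in the same AD against Het comparison, in which 14% of all genes were called. Of 16 interferon-induced genes, the group Xaf1 belongs to, 1 was lower in AD than in Het irradiated thymus and none higher. It was Bst2, a membrane protein that tethers budding virus, at -0.52 ± 0.14 (adjusted p = 0.0201 in edgeR). Of 9 non-muscle myosin genes 2 were lower in AD, with Myh9, the IIA heavy chain, at -0.55 ± 0.10 (adjusted p = 0.00138 in edgeR). Of 12 myelin genes 1 was lower, Emp1 at -0.60 ± 0.14 (adjusted p = 0.00779 in edgeR), which belongs to the Pmp22 family. Among 8 TRIM ligases 3 were higher and 2 lower in AD, and among 11 genes of F-box WD40 proteins and their ligase partners 3 were higher and 1 lower. The Y-box protein Ybx3 was higher, at 0.29 ± 0.08 (adjusted p = 0.0252 in edgeR), the 1 call among 5 tested genes of the Y-box and germ cell list. Gucy1a2, a soluble guanylyl cyclase subunit, was lower at -0.69 ± 0.15 (adjusted p = 0.0046 in edgeR), the 1 call among 8 tested cyclase genes. Of 7 inhibitors of apoptosis and their partners 1 was higher in AD, the mitochondrial XIAP antagonist Diablo at 0.22 ± 0.06 (adjusted p = 0.0245 in edgeR).

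Likeness of pattern was measured as the Pearson correlation over all 42 libraries after centring each setting, among 19562 genes, and is a description that shares libraries and mice across genes. Centring left the difference between carriers and Null in place. Members chosen for genotype differences, and Trp53, can be alike through that difference alone, so their likeness is no separate result. The genes most like Nlrp1a were Trp53 (0.76), Ybx2 (0.72) and Nlrp1b (0.66). Those most like Ybx2 were Myh10 (0.75), Trp53 (0.69) and Mprip (0.63), the last at -9.92 Mb on the same chromosome. Trim16 was most like Gm1821 (0.62), Flg2 (0.59) and Rab4a (0.55), none of which lies on chromosome 11.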

How the data were processed

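RNA-seq counts of 49585 genes in 42 libraries were taken as deposited by the authors, who aligned reads with STAR 2.6.0b to GRCm38 and used DESeq2, per the submitters' processing notes; the counting tool, its annotation release and its strand setting are not given in the sources used here. The names of the basal thymus columns held no tissue, and each was matched as the only column left for its animal. Symbols and positions came from GENCODE M21 (49326 identifiers matched, 259 did not). In R 4.3.3, edgeR 4.0.16 ran robust quasi-likelihood F tests on all genes that passed filterByExpr, with TMM scaling. P-values were adjusted by Benjamini-Hochberg over all genes tested, and a call meant an adjusted p under 0.05. Fits held 16 irradiated thymus libraries, 8 basal thymus libraries, 24 thymus libraries, 23 basal AD and Null libraries of 4 organs, or 6 libraries of 1 organ. Log2 CPM used a prior count of 2. The scripts were tested on simulated data. No library was a copy of another: 49 same-group pairs were compared, and the smallest chi-square over genes, divided by its degrees of freedom, was 4.04. The reported tests did not pair organs of the same animal. Animal numbers in the labels were used for the alternative with mouse as a block. The named genes were the 10 members and Trp53, neighbours apart in both thymus settings, the 3 most alike genes for Nlrp1a, Ybx2 and Trim16, and up to 4 called genes of a list. The members and lists were chosen with earlier results of these data known. Alternatives were RLE scaling, no filter, DESeq2 1.42.0, only the 2 groups compared, Adipoq as a covariate, mouse as a block, each library left out and, added after the data were seen, library totals only for organs. P-values measure the spread between these mice only.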

Additional observations from a re-analysis of the deposited data

Results flagged for a closer look

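Several values stood apart within their group of 4 irradiated thymus libraries by the Dixon gap test, which flags about 1 in 20 groups by chance and was run on 44 groups. Myh10 in Het-631 was 40 scaled CPM, with the other Het libraries at 20.4 to 22.6. Myh10 in Null-593 was 17.6, with the other Null libraries at 13.1 to 13.9. Nlrp1a in RP-656 was 1.03, with the other RP libraries at 0.949 to 0.956. These are 51 counts in RP-656 and 43, 44 and 46 in the others, a small gap for counts this low. Nlrp1c-ps in Null-604 was 0.0217, a single count, with the other Null libraries at 0.

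The order of AD and Null for Nlrp1b was not the same in all organs. The mean log2 CPM difference of AD from Null was 1.06 in irradiated thymus, 0.81 in basal thymus and 3.34 in intestine, with every AD library above every Null library, and it was -1.12 in liver, with every AD library below. Trim16 likewise had a difference of 0.21 in pancreas, with every AD library above, and -1.49 in basal thymus, with every AD library below. The difference between organs was not tested in either case.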

How the results depend on the processing

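The number of members called in edgeR was within 1.5 times of the reported one under RLE scaling, no filter, DESeq2 and library totals only. Fitting only the 2 groups compared gave 4 for RP against Het (2 reported), 1 for Het irradiation (3 reported) and 2 for AD irradiation (0 reported); the cause was not tested. With one library left out the counts ran from 1 to 4 for AD against Het and for RP against Het, 0 to 3 for Het irradiation, 7 to 8 for intestine, 6 to 7 for liver and 7 to 9 for pancreas, and were 0 in the other 4 comparisons. With library totals only, liver differences were -1.22 for Xaf1 (0.01 reported), -0.43 for Myh10 (0.81) and -1.05 for Pmp22 (0.19), and pancreas differences were -1.39 for Myh10 (0.67) and -0.95 for Pmp22 (1.12). Pairing organs by mouse as a block, from the animal numbers in the labels, gave 8, 7 and 9 members called for intestine, liver and pancreas (8, 7 and 10 reported), the only call lost being Nlrp1a in pancreas; no other comparison had shared animals.

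Counts over all genes moved more. AD against RP had 0 calls, with 17 in DESeq2, 47 with 2 groups and 0 to 4 with one library left out. Basal AD against Het had 0, with 16 without a filter, 12 in DESeq2, 1 with 2 groups or Adipoq and 0 to 8 with one library left out. AD irradiation had 129, with 319 in DESeq2, 361 with 2 groups and 67 to 116 with one left out; Null irradiation had 31, with 122, 3 and 0 to 60. Het irradiation had 3972, with 2370 with 2 groups, and AD against Het had 3099, with 2189 to 4665. Of 22 basal thymus differences from Null 14 moved by more than the replicate spread with Adipoq as a covariate, and fat content cannot be told apart from genotype there. Depth limits Gucy2e, Nlrp1a and Nlrp1c-ps most, at under 100 counts in each thymus library.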
